A study of Mus musculus with 8 samples.

Results

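The 10 genes described here encode Wnt ligands: Wnt2, Wnt4, Wnt5a, Wnt5b, Wnt6, Wnt7b, Wnt9a, Wnt10a, Wnt10b and Wnt11. They were chosen by symbol from a count table of 28901 genes. Of the 10, 9 had a row and 8 passed the filter on low counts; Wnt7b did not pass it and Wnt2 was not analysed here. The table holds 8 RNA-seq libraries of MC3T3-E1, a mouse cell line of pre-osteoblasts from the skull that can be driven to form osteoblasts in culture. The titles give 4 groups of 2 libraries, Brd, control, NM-Brdi and NM-DMSO, and the series is concerned with how BRD9, a bromodomain protein of chromatin-remodelling complexes, and Wnt/β-catenin signalling act on the osteoblast factor Sp7. Its design text describes I-BRD9, a BRD9 inhibitor, at 10 µM with DMSO as the vehicle, and an osteogenic medium with glycerol phosphate, ascorbic acid and 0.1 µM dexamethasone. The labels do not assign these treatments or media to libraries and do not spell out NM, so each group keeps its title as its name here. Whether separate cultures gave the libraries of 1 group is not said either, and the p-values measure only the spread between libraries, which may be technical.

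Wnt proteins are secreted glycoproteins that carry a lipid added by the acyltransferase Porcupine, and they leave the cell with the carrier Wntless. Bound to a Frizzled receptor and to LRP5 or LRP6, a Wnt stabilises β-catenin, which then works with TCF/LEF factors at target genes; other Wnts act through receptors such as ROR2 without β-catenin. In mouse mesenchymal precursors Wnt6, Wnt10a and Wnt10b are known to favour osteoblast formation over fat cell formation, Wnt5a is a textbook ligand of ROR2, and Wnt4 and Wnt9a are known from the development of joints.

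The promoters of 4 members are shown because they belong to the genes called lower (Wnt10b, Wnt6) or higher (Wnt9a) in Brd than in control, or to a gene close to 0 in 1 group (Wnt11). Each is a RefSeq window on GRCm38.p6 from 250 bases before to 50 bases after the gene start, 5′ to 3′ on the gene's strand. Capitals mark matches, on either strand, to the GC box GGGCGG or to the TCF/LEF core CTTTGAT.
Wnt10b (chr15:98778101-98778400, minus strand): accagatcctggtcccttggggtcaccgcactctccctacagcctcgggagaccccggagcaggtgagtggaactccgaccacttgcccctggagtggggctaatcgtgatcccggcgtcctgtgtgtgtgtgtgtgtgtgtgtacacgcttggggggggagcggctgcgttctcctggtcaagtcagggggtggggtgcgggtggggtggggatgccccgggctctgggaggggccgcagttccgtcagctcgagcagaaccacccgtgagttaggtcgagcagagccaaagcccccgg
Wnt6 (chr1:74771642-74771941, plus strand): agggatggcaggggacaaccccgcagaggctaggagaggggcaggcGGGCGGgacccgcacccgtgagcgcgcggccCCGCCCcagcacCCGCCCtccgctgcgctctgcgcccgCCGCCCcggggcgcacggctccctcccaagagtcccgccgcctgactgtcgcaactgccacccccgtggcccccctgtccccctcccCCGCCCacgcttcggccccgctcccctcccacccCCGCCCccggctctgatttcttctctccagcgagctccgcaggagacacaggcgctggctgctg
Wnt9a (chr11:59306680-59306979, plus strand): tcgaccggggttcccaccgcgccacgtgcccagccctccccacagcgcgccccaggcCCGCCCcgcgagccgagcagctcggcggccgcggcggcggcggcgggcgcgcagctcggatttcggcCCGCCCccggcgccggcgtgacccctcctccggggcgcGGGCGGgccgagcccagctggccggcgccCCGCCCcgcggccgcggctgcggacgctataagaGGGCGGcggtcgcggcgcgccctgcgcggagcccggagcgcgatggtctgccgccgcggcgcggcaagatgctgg
Wnt11 (chr7:98834862-98835161, plus strand): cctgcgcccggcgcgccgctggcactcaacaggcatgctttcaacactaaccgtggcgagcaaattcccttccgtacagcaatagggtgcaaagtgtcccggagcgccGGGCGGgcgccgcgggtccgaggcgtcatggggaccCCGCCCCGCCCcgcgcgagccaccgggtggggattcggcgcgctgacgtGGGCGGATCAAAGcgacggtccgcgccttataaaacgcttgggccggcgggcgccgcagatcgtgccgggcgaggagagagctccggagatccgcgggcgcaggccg

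RefSeq windows, 10 in all, were matched for 7 of the 10 members. The GC box occurred 6 times in the Wnt6 window, 5 times in that of Wnt9a, 4 times in the Wnt11 window and 8 times in that of Wnt4, and these letters were not found in the Wnt10b window. At least 1 match stood in 35.7% of all 32851 windows of this length. The Wnt9a and Wnt4 windows are rich in G and C (83.3% and 84.3%, against 66.3% for Wnt10b), which by itself makes such a match more frequent. The core CTTTGAT stood on the minus strand of the Wnt11 window shown, starting 51 bases before the gene start, and occurs in 3.73% of windows. A second Wnt11 window, not shown, held 1 GC box and no CTTTGAT. One Wnt5b window also held CTTTGAT, starting 71 bases before the gene start given for it. The other TCF/LEF core searched, CTTTGAA, and the RUNX core TGTGGT were not found in these 4 windows; they occur in 5.14% and 16.8% of windows. A match describes letters in the window and is not a measured binding site.

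Sequencing depth lay between 16918182 and 24555028 counted reads. The unit of level used below, CPM, divides counts by a library size adjusted with TMM factors, so that 1 CPM was worth 16.4 to 26.1 counts. The NM-DMSO libraries lay farther apart than those of the other groups: of 10954 genes with a mean of at least 10 CPM, 592 differed over 2-fold between them, while 5 did so between the NM-Brdi libraries and 0 within Brd or within control. The osteoblast markers Runx2, Sp7, Alpl, Ibsp, Col1a1 and Bglap had counts in every library, with a sum of 2674 to 6793 CPM. Of the markers of other cell types, Acan, Matn1, Ptprc, Adgre1, Acp5, Cdh5 and Tek had 3 counts or fewer in each library, while Sox9 had 2095 to 3791 counts, Col2a1 1182 to 2741, Ctsk 865 to 1635, Cebpa 125 to 384, Acta1 143 to 271 and Cd68 18 to 56. In every library a count of 2 was more frequent among genes than a count of 1 (for example 1808 against 1312 genes in Brd replicate 1), and whether both mates of a read pair were counted was not tested. If they were, intervals that cover counting error are too narrow.

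Wnt10b, a ligand that acts through β-catenin and raises bone mass when overexpressed in mice, was lower in Brd than in control and in NM-Brdi than in NM-DMSO. It lies on chromosome 15 (98770712 to 98778150, GRCm38), 11707 bases from Wnt1. Wnt10b stood at 93.9 and 98.7 CPM in control and at 97.6 and 94.9 CPM in NM-DMSO, whereas the Brd libraries had 44.1 and 43.9 CPM and those of NM-Brdi 30.9 and 41.5 CPM. The 4 libraries of control and NM-DMSO thus lay together and above the 4 others, and the Brd libraries lay just above those of NM-Brdi. Brd was 2.19-fold lower than control (log2 fold change -1.13, SE 0.14, adjusted p = 0.00559), and NM-Brdi was 2.66-fold lower than NM-DMSO (log2 fold change -1.41, SE 0.14, adjusted p = 0.00763; edgeR's quasi-likelihood test with Benjamini-Hochberg adjustment over 17038 genes). Wnt10b was the only 1 of the 8 tested members called in both. Refitting with each library left out in turn gave log2 fold changes of -1.17 to -1.09 for Brd against control and -1.63 to -1.21 for NM-Brdi against NM-DMSO. The first call was lost when either library of Brd or of control was left out (adjusted p up to 0.0953), and the second without NM-Brdi replicate 1 (adjusted p = 0.0682) and in a fit of the NM-Brdi and NM-DMSO libraries alone.

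Wnt10a and Wnt6 are neighbours on chromosome 1, on the same strand and 6194 bases apart (Wnt6 at 74771892 to 74785322, Wnt10a at 74791516 to 74804179). Wnt10a had 51.2 and 46.4 CPM in control, 31.4 and 35.1 CPM in Brd, 36.6 and 29.4 CPM in NM-DMSO, and 15.6 and 15.9 CPM in NM-Brdi. Control was highest, NM-Brdi lowest, and Brd and NM-DMSO overlapped. Against NM-DMSO, Wnt10a was 2.10-fold lower in NM-Brdi (a log2 fold change -1.07, SE 0.14, adjusted p = 0.0174). For Brd against control it missed the threshold (log2 fold change -0.55, SE 0.14, adjusted p = 0.0603), and it was called there by DESeq2, by voom, without the filter, in a fit of these 4 libraries alone and in the fits without an NM-DMSO library. The call in NM-Brdi was lost when any library outside NM-DMSO was left out (log2 fold change -1.22 to -0.90 over all 8 such fits, adjusted p up to 0.272).

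Wnt6 had 36.3 and 32.0 CPM in control, 20.6 and 16.9 CPM in Brd, 20.5 and 16.4 CPM in NM-DMSO, and 11.5 and 14.5 CPM in NM-Brdi. The order of the groups was that of Wnt10a, with Brd and NM-DMSO again overlapping. Here the difference that passed the test was the one between Brd and control, with Wnt6 1.82-fold lower in Brd (-0.87 on the log2 scale, SE 0.18, adjusted p = 0.0318). For NM-Brdi against NM-DMSO the fitted change was -0.51 on the log2 scale (SE 0.18, adjusted p = 0.18). The call in Brd was kept only in the fits without an NM-DMSO library, of the 8 fits without 1 library (log2 fold change -1.01 to -0.73, adjusted p up to 0.261).

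**Figure D1:**
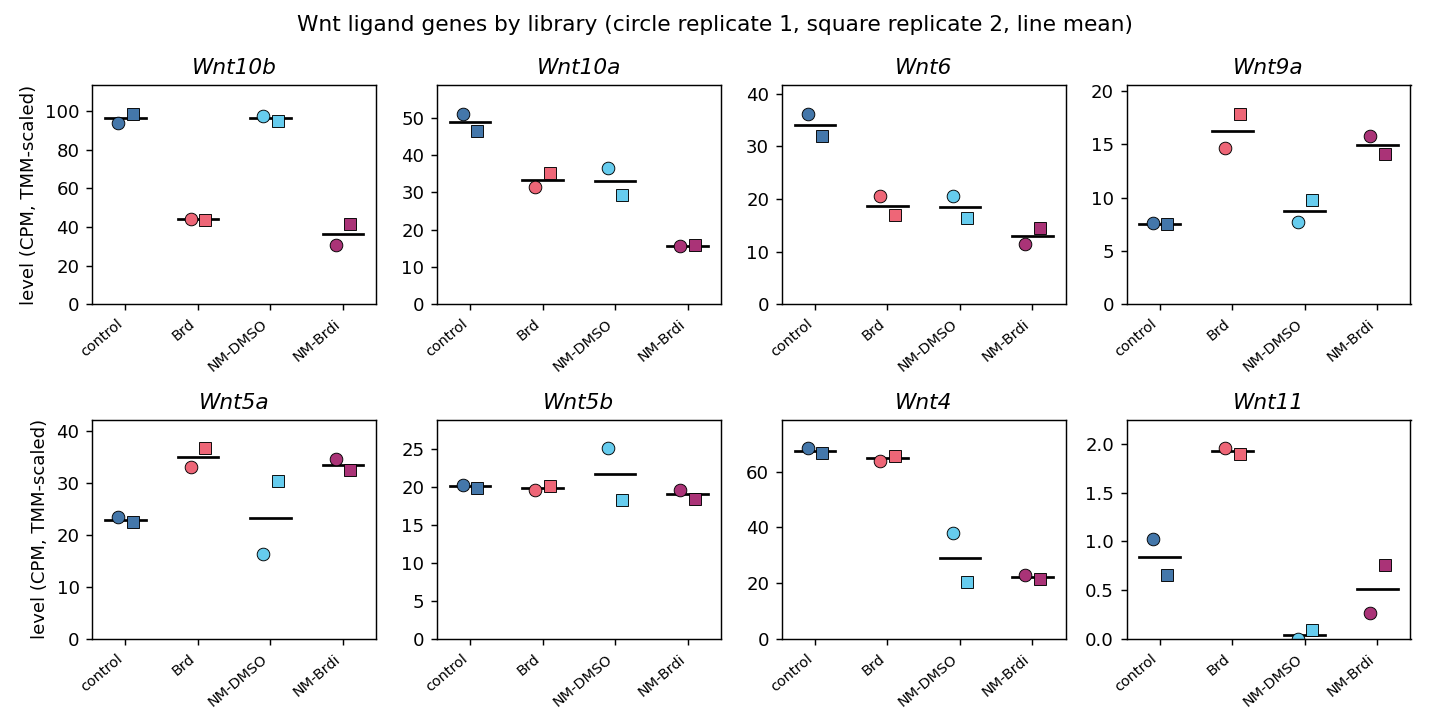
Level in CPM (linear axis from 0) of the 8 tested Wnt ligand genes in each library, by group; circles are replicate 1, squares replicate 2 and lines the group mean. Wnt10b lies between 93.9 and 98.7 CPM in control and NM-DMSO and between 30.9 and 44.1 CPM in Brd and NM-Brdi, and Wnt9a runs the other way.

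Wnt9a was higher in Brd than in control. It lies on chromosome 11 (59306928 to 59333552), 16176 bases from Wnt3a. Wnt9a stood at 14.6 and 17.9 CPM in the Brd libraries, 7.61 and 7.50 CPM in control, 7.74 and 9.75 CPM in NM-DMSO, and 15.7 and 14.1 CPM in NM-Brdi. Brd and NM-Brdi overlapped, and both lay above every library of NM-DMSO and control. Brd was 2.15-fold higher than control (log2 fold change 1.11, SE 0.18, adjusted p = 0.0127). The log2 fold change of NM-Brdi against NM-DMSO was 0.77 (SE 0.17, adjusted p = 0.0759), not called in the main edgeR fit. DESeq2 and edgeR without the filter called this difference. Leaving out either library of Brd or control ended the call in Brd (log2 fold change 0.96 to 1.24 over the 8 fits, adjusted p up to 0.138).

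Wnt5a (chromosome 14, 28504750 to 28527448) had 33.2 and 36.7 CPM in Brd and 23.6 and 22.4 CPM in control, while NM-DMSO had 16.4 and 30.4 CPM and NM-Brdi 34.7 and 32.5 CPM. Brd and NM-Brdi again overlapped at the higher level, while the NM-DMSO libraries spanned those of control. Neither comparison passed the test in the main fit. For Brd against control the log2 fold change was 0.60 (SE 0.25, adjusted p = 0.233), and for NM-Brdi against NM-DMSO 0.52 (SE 0.25, adjusted p = 0.269). Without the filter both were called, and the first was also called by voom and in a fit of the 4 Brd and control libraries alone. Without NM-DMSO replicate 1 or 2, Wnt5a was called higher in Brd than in control (adjusted p = 1.61e-05 and 1.47e-05), and in the other 6 fits without 1 library it was not (adjusted p up to 0.637). For NM-Brdi against NM-DMSO the log2 fold change was 0.15 without NM-DMSO replicate 1 and 1.04 without replicate 2. Wnt5a shares 358 bases of exon with Gm2670 on the opposite strand, which had 26 counts over all 8 libraries.

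Wnt5b (chromosome 6, 119432531 to 119544347), a close relative of Wnt5a known for its action on cartilage cells, was the steadiest member, between 18.3 and 25.1 CPM in the 8 libraries. The ranges of neighbouring groups overlapped throughout, with NM-DMSO, control, Brd and NM-Brdi in falling order of the mean. Its log2 fold change was -0.02 (SE 0.16) for Brd against control and -0.19 (SE 0.16) for NM-Brdi against NM-DMSO, neither called.

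Wnt4 (chromosome 4, 137277489 to 137299726) followed the prefix NM. It had 68.3 and 66.7 CPM in control, 63.9 and 65.6 CPM in Brd, 38.0 and 20.4 CPM in NM-DMSO, and 22.8 and 21.4 CPM in NM-Brdi. All 4 libraries without the prefix lay above all 4 with it, and the NM-DMSO libraries spanned those of NM-Brdi. Wnt4 was 2.31-fold higher in control than in NM-DMSO (log2 fold change 1.21, SE 0.25, adjusted p = 0.0172) and in Brd it was 2.93-fold above NM-Brdi (a fitted log2 difference of 1.55, SE 0.25, adjusted p = 0.00843). The log2 fold change of Brd against control was -0.06 (SE 0.24), not called. That of NM-Brdi against NM-DMSO was -0.40 (SE 0.25, adjusted p = 0.367), and it was 0.12 without NM-DMSO replicate 1. The call against NM-DMSO was lost without either control library and that of Brd against NM-Brdi without either library of those groups (adjusted p up to 0.116 and 0.106).

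Wnt11, known for signalling without β-catenin and for kidney branching, was low in all libraries. The Brd libraries held 32 and 33 counts of it, the control libraries 20 and 11, those of NM-Brdi 7 and 19, and those of NM-DMSO 0 and 2. It passed the filter on low counts through the libraries in which it was high. With 2 counts in NM-DMSO the ratio of control to NM-DMSO was 18.2, with a 95% counting interval from 4.64 to 157, and that of NM-Brdi to NM-DMSO was 10.8, from 2.7 to 93.9. Since the filter kept Wnt11 through its higher libraries, these ratios are a description and its tests against NM-DMSO are not read. Brd against control, 65 against 31 counts, gave a ratio of 2.25 (counting interval 1.44 to 3.57) and was not called in the main fit (adjusted p = 0.308). Voom and a fit of the Brd and control libraries alone called this difference. Wnt11 shares 364 bases of exon with Gm8398 on the opposite strand, which had no row in the table. The strand setting is not given, so how reads of that stretch were assigned is uncertain. Wnt7b, which promotes osteoblast formation in mice, had 4 counts in NM-Brdi replicate 2 and 0 in the other 7 libraries. A count of 0 allows up to 3 counts, 0.115 to 0.183 CPM per library, and no fold is given for Wnt7b.

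**Figure D2:**
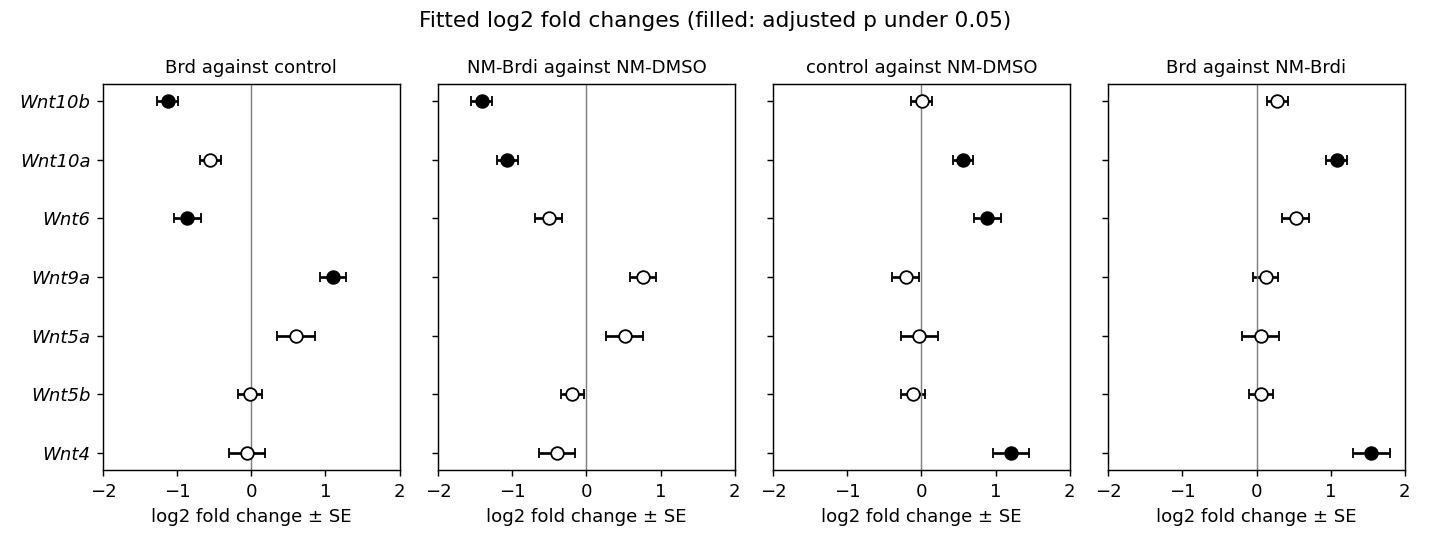
Fitted log2 fold change (horizontal axis) with its SE for 7 Wnt ligand genes in 4 comparisons of groups; filled points have an adjusted p under 0.05. Wnt10b lies at -1.13 and -1.41 in the comparisons on the left and at 0.0014 for control against NM-DMSO, while Wnt4 lies at 1.21 and 1.55 in those on the right.

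Of the 8 tested members, 3 were called between Brd and control, with Wnt10b and Wnt6 lower and Wnt9a higher. Over all tested genes 6.58% were called, 3.13% higher and 3.45% lower. The share higher among those called was 47.5%, against 29.5% and 26.7% without control replicate 1 or 2. The median log2 fold change was -0.039 over the tested members and 0.0014 over all genes. Between NM-Brdi and NM-DMSO, 2 members were called, Wnt10b and Wnt10a, both lower, beside 1.87% of all tested genes, 0.816% higher and 1.05% lower. The medians were -0.29 and -0.0039, and the share higher among all called genes was 43.7%, against 24.3% with voom and 12.5% to 49.0% without 1 library. In both comparisons the number of called members depended on which library was left out. The number of called genes over the whole table did so as well, and both ranges are given below. A count of members from such a fit is therefore not read as a trait of the members. The fit uses 1 estimate of the spread per gene for all 4 groups, NM-DMSO included.

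The difference between the effects in these pairs was tested as an interaction and called 0 of the 8 members with edgeR, 0 with DESeq2 and 1 where the unadjusted p of edgeR is taken at 0.05. Over all genes edgeR called 0.0411%, with 0.0117% positive and 0.0293% negative. The member under that unadjusted threshold was Wnt10a, with an interaction of 0.52 (SE 0.20, adjusted p = 0.468). For Wnt10b the interaction was 0.28 (SE 0.20), for Wnt6 -0.36 (SE 0.26) and for Wnt9a 0.34 (SE 0.25). A call in 1 pair and not in the other, as for Wnt6, Wnt9a and Wnt10a, was therefore not shown to be a difference between the pairs. The number of members that the interaction called also depended on the library left out, as did that of all genes, with both ranges given below.

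Between control and NM-DMSO, Wnt6 (1.85-fold, adjusted p = 0.0171), Wnt4 and Wnt10a (1.48-fold, adjusted p = 0.0296) were called higher in control. Wnt11, which brings the called members to 4, is set apart because the filter kept it through its higher libraries; its call was also lost without any Brd or control library, with voom and in the pair alone. The call of Wnt10a was kept, of the 8 fits without 1 library, only in those without an NM-DMSO library. The share of all tested genes called was 23.4%, with 12% higher and 11.5% lower. Of the genes called, 51.1% were thus higher in control, against 83.8% in a fit of this pair alone, 81.5% and 80.1% without control replicate 1 or 2, and 67.0% to 68.2% without a Brd or NM-Brdi library. Wnt10b had a log2 fold change of 0.0014 (SE 0.14). Between Brd and NM-Brdi, 2 members were called, Wnt4 and Wnt10a (2.11-fold higher in Brd, adjusted p = 0.00369), beside 10.5% of all genes, 6.73% higher and 3.77% lower. Of these called genes 64.1% were higher in Brd, against 53.2% with voom, 52.5% in the pair alone, and 50.6% to 79.1% over the fits without 1 library. These comparisons share libraries with those above. The called members numbered 0 without either control library for control against NM-DMSO, and 0 without Brd replicate 2 or an NM-Brdi library for Brd against NM-Brdi.

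**Figure D3:**
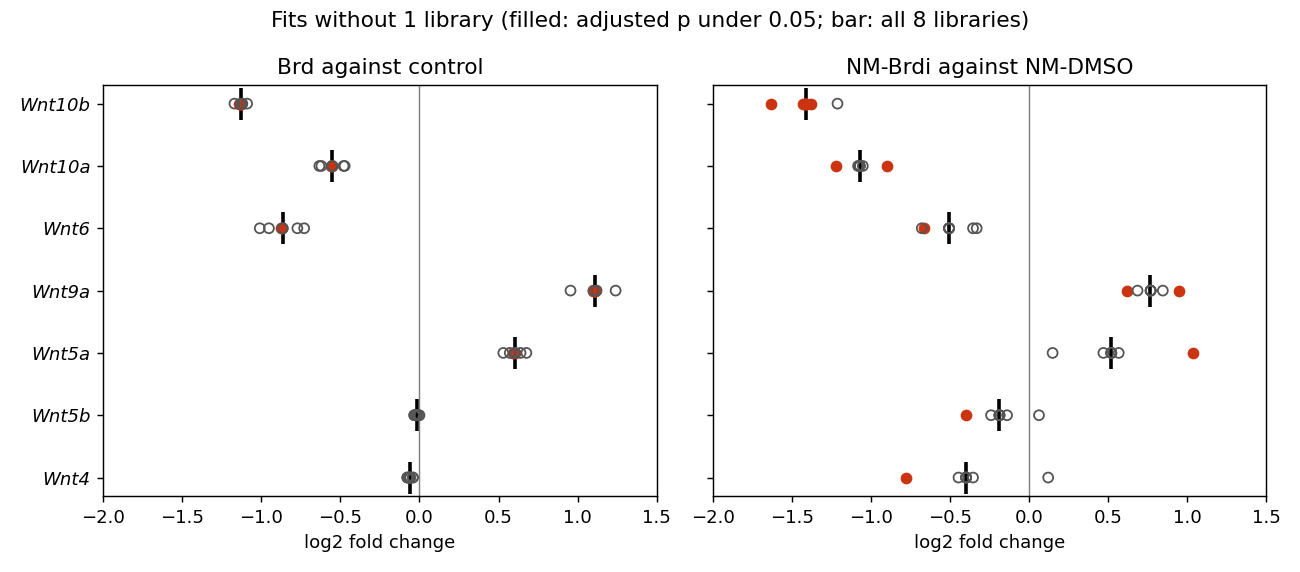
Log2 fold change (horizontal axis) of 7 Wnt ligand genes in the 8 fits that leave out 1 library each, with filled points for an adjusted p under 0.05 and a bar for the fit of all 8 libraries. Wnt10b stays between -1.63 and -1.09 in both comparisons, while Wnt4 in NM-Brdi against NM-DMSO runs from -0.78 to 0.12.

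Per kilobase of exon, Wnt10b had the highest level of the members in control (28.3 ± 1.00 CPM per kilobase, mean ± SD, n = 2), NM-DMSO (28.3 ± 0.559) and NM-Brdi (10.6 ± 2.18). In Brd the highest was Wnt4 (15.4 ± 0.276), followed by Wnt10a (13.5 ± 1.06) and Wnt10b (12.9 ± 0.0543), and the libraries of Wnt10a and Wnt10b overlapped. The summed level of the members was 94.4 and 91.1 CPM per kilobase for control, 75.8 and 65.9 for NM-DMSO, 66.8 and 68.6 for Brd, and 42.7 and 45.9 for NM-Brdi. The sum was thus highest in control and lowest in NM-Brdi, and the NM-DMSO libraries spanned those of Brd. Of that sum, Wnt10b made up 40.1% ± 3.18 for NM-DMSO, 30.6% ± 1.84 for control, 23.9% ± 3.74 for NM-Brdi and 19.1% ± 0.425 for Brd (SD, n = 2). Wnt9a made up 2.45% ± 0.0363 in control and 7.21% ± 0.884 in Brd, and 3.76% ± 0.975 in NM-DMSO and 10.1% ± 1.30 in NM-Brdi. Lengths are those of all annotated exons of a gene, so a shorter transcript in use would have a higher level than given.

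**Figure D4:**
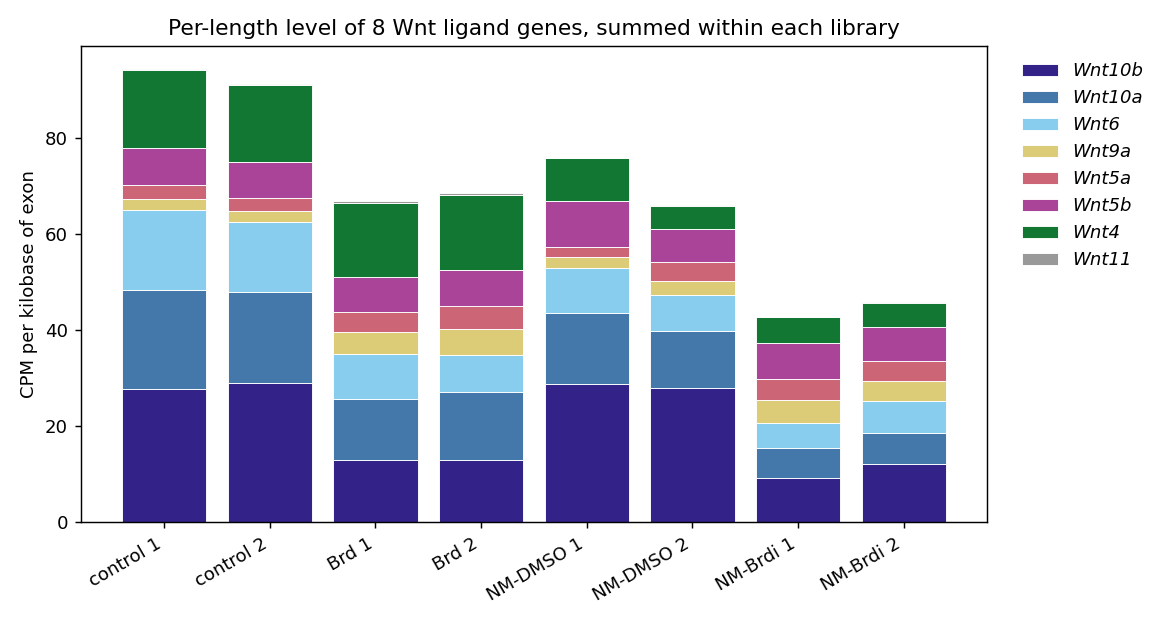
Level per kilobase of exon (linear axis from 0) of the 8 tested Wnt ligand genes, stacked within each library. The stacks are tallest in control, at 94.4 and 91.1, and shortest in NM-Brdi, and the Wnt10b share at the foot is smaller in Brd and NM-Brdi than in control and NM-DMSO.

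The other Wnt ligand genes were near absent. Of 9 listed, 6 had a row, and Wnt2b, with 5 to 16 counts per library, was the only 1 that passed the filter; it was not called in any comparison. Wnt1, Wnt3, Wnt8a, Wnt8b and Wnt16 had 2 counts or fewer in each library.

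Of 10 tested genes for acylation, secretion and extracellular handling of Wnts, 1 was called between Brd and control, Adgra2, a receptor that works with Reck in Wnt7 signalling, which was lower (log2 fold change -0.85, adjusted p = 0.0195). Of all genes 6.58% were called there. Between NM-Brdi and NM-DMSO 0 of the 10 were called by edgeR, beside 1.87% of all genes, with 2 at an unadjusted p under 0.05. Porcn, which encodes Porcupine, had 9.77 ± 1.01 CPM in control and 6.04 ± 0.926 CPM in NM-DMSO (log2 fold change 0.69, adjusted p = 0.0356), and Wls, which encodes Wntless, was higher in control as well (0.35, adjusted p = 0.0307). Porcn was also higher in Brd than in NM-Brdi (1.00, adjusted p = 0.0148). Notum, which removes the lipid from Wnts, was lower in Brd (-1.82) at an adjusted p just under the threshold, and at low levels of 0.329 CPM in Brd and 1.17 CPM in NM-Brdi.

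Of 14 tested receptors and co-receptors, 2 were lower in Brd than in control and 0 higher, beside 3.45% and 3.13% of all genes. Fzd9, a Frizzled known from osteoblasts, fell by 1.68 on the log2 scale (adjusted p = 0.00517), and Ror2 fell by 0.63 (adjusted p = 0.0135). Against NM-DMSO, Fzd9 was also lower in NM-Brdi (-1.26, adjusted p = 0.0289), and Fzd4 was higher (1.29, adjusted p = 0.0466). Of all genes 1.05% were called lower and 0.816% higher there. Between control and NM-DMSO 8 of the 14 were higher in control and 0 lower, beside 12% and 11.5% of all genes. Fzd1 (1.64), Ror1 (2.00), Fzd5 (1.59) and Lrp5 (2.09) had the smallest p. The median over the 14 was 0.52, against -0.018 over all genes, and the share of all called genes that was higher in control depended on the fit, as given above. Between Brd and NM-Brdi 5 were higher in Brd and 0 lower, beside 6.73% and 3.77% of all genes. Among the 5 were Fzd5 (1.97), Ror1 (1.53), Fzd8 (1.05) and Lrp5 (1.36).

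Of 6 tested secreted antagonists, 3 were lower and 1 higher in Brd than in control, beside 3.45% and 3.13% of all genes. In NM-Brdi 1 was lower and 3 were higher than in NM-DMSO, beside 1.05% and 0.816% of all genes. Dkk3, a member of the Dickkopf family, was higher in both (1.28 and 0.99 on the log2 scale). Sfrp2, a soluble Frizzled-like protein, and Draxin were lower in Brd (-1.11 and -0.99) and higher in NM-Brdi (0.65 and 1.90), and their interactions were called (adjusted p = 0.00793 and 0.0213). These calls were lost in each of the 6 fits without a Brd, control or NM-Brdi library. Dkk2, counted among the 3 lower, had 0 counts in both Brd libraries and 12 and 10 in those of control. The filter kept it through its higher libraries, so its call is not read. Wif1, which binds Wnts directly, was lower in NM-Brdi (-2.30). Of 10 tested feedback and target genes of β-catenin, 6 were lower in Brd than in control, beside 3.45% of all genes. In NM-Brdi 4 were lower than in NM-DMSO, beside 1.05% of all genes, and 0 were higher in either comparison. Axin2, Rnf43, Tnfrsf19 and Tcf7 had the smallest p in the first comparison, with log2 fold changes of -1.33, -1.25, -1.45 and -1.93. Tcf7, Myc, Nkd2 and Tnfrsf19 had it in the second, and Tcf7 and Myc fell by 2.63 and 1.29 there. Nkd2, counted among the 4 lower, had 32 and 36 counts for NM-DMSO but only 0 and 2 for NM-Brdi. Like Dkk2, Nkd2 passed the filter through its higher libraries, so its call is not read either.

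Marker lists of other cell types moved with some of these groups. The summed level of the 3 adipocyte markers with a row was 13.6 to 14.0 CPM for control and 7.30 to 8.48 CPM for Brd, and 17.2 to 18.6 CPM for NM-DMSO and 10.4 to 10.8 CPM for NM-Brdi. Nearly all of it was Cebpa, while Pparg and Fabp4 had 8 counts or fewer in each library. The chondrocyte list, carried by Sox9 and Col2a1, had 314 to 325 CPM in control, 266 to 277 in Brd, 197 to 247 in NM-DMSO and 215 to 216 in NM-Brdi. These 2 genes differed in pattern. In the same order of groups, Col2a1 had means of 142, 139, 58.1 and 73.8 CPM, and Sox9 of 177, 132, 164 and 142 CPM. The list of macrophages and osteoclasts, carried by Ctsk, had 72.0 to 75.5 CPM in control, 56.1 to 57.7 in Brd, 58.2 to 83.5 in NM-DMSO and 41.7 to 44.1 in NM-Brdi. The skeletal muscle list, carried by Acta1, had 15.7 to 16.7 CPM in Brd and 8.63 to 10.4 CPM over the other groups. The endothelial list stayed at 0.402 CPM or less. The osteoblast list, carried mostly by Col1a1, had 6410 to 6793 CPM in control, 4467 to 4681 in Brd, 4054 to 4426 in NM-DMSO and 2674 to 2905 in NM-Brdi. Col1a1 had a mean of 3731 CPM in control and 3583 in Brd, a difference that was not called. Ibsp had means of 1928 CPM in control, 488 in Brd, 148 in NM-DMSO and 4.56 in NM-Brdi. Bglap went the other way between control and NM-DMSO, with means of 3.02 and 7.37 CPM (edgeR, adjusted p = 0.0235). The part of these markers in the levels of the Wnt ligands was not tested, and in bulk RNA fewer cells of a type and less RNA per cell cannot be told apart.

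On the log2 scale the 3 members with the widest range of group means were Wnt11 (4.59), Wnt10a (1.63) and Wnt4 (1.61). The range of Wnt11 rests on 2 counts in NM-DMSO, and in CPM it is narrow, while that of Wnt10b, from 36.2 to 96.3 CPM, is wider. The genes most like the 3 were sought among 9303 named genes of at least 10 CPM. Likeness was the root mean square difference between log2 CPM values centred over the 8 libraries. Nearest to Wnt10a were Bcat1 (0.162), Fhod3 (0.163) and Pkdcc (0.167), and nearest to Wnt4 were Odc1 (0.183), Mab21l1 (0.214) and Podnl1 (0.215). For Wnt11 the nearest genes were farther away, among them Olfml2b (0.697) and Kitl (0.711). These values describe 8 libraries in 4 groups and carry no test.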

How the data were processed

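The authors deposited raw counts of reads per gene symbol for 8 libraries. The submitters' processing notes name STAR 2.7.10a, featureCounts 2.0.3, Trimmomatic 0.39 and FastQC 0.11.9, as well as both GRCm38 and GRCh38; the sources used here do not give the annotation, the strand setting or how mates and multiply matching reads were counted. Groups and replicate numbers came from the titles. Genes were filtered with filterByExpr (17038 of 28901 kept), scaled with TMM and tested with the quasi-likelihood test of edgeR 4.0.16 (R 4.3.3) in 1 fit of 4 groups, with Benjamini-Hochberg adjustment over all tested genes and calls at an adjusted p under 0.05. SEs come from the F statistic. Alternatives were RLE factors, DESeq2 1.42.0, no filter, a replicate block, voom with quality weights (limma 3.58.1), each pair alone and each library left out. The code was checked on simulated counts. Positions and exon lengths are those of GENCODE M21 (GRCm38). The transcripts were compared with BLAST+ 2.17.0 at 95% identity. The longest transcript of Wnt4 matched Gm38973 over 169 bases without an overlap of exons, so reads of that stretch are uncertain. Counting intervals are exact binomial ones and cover counting error only. All 10 members are named whatever their result, and of the other lists up to 4 called genes with the smallest p per comparison. Members and lists were chosen with earlier results of these data known. Of the genes nearest to Wnt11, 1 is not reported here.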

Additional observations from a re-analysis of the deposited data

How the results depend on the processing

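With 2 libraries a group, the number of called Wnt ligand members depended on which library was left out, and the cause was not tested. It ranged from 0 to 5 for Brd against control (3 with all libraries), from 0 to 8 for NM-Brdi against NM-DMSO (2), from 0 to 6 for control against NM-DMSO (4), from 0 to 5 for Brd against NM-Brdi (2) and from 0 to 4 for the interaction (0). Without a filter on low counts it was 5 for Brd against control and 5 for NM-Brdi against NM-DMSO. With voom and quality weights it was 6 for Brd against control, 5 for Brd against NM-Brdi and 1 for control against NM-DMSO. In fits of the 4 libraries of a pair alone it was 6 for Brd against control, 4 for Brd against NM-Brdi, 0 for NM-Brdi against NM-DMSO and 0 for control against NM-DMSO. In that fit of NM-Brdi against NM-DMSO, edgeR called 0 genes of the whole table.

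Over the whole table the number of called genes ranged, over the fits without 1 library, from 36 to 5539 for Brd against control (1121 with all libraries), from 8 to 9577 for NM-Brdi against NM-DMSO (318), from 556 to 11265 for control against NM-DMSO (3988), from 396 to 7691 for Brd against NM-Brdi (1789) and from 0 to 7458 for the interaction (7). The share called higher between NM-Brdi and NM-DMSO was 43.7%, and 24.3% with voom. DESeq2 called 917 genes there and 300 for the interaction. In the order above, edgeR without a filter called 1848, 2453, 6274, 3198 and 608 genes, and voom called 5876, 144, 2597, 7380 and 154. Fits of a pair alone called 6413, 0, 371 and 7215, in the same order without the interaction.

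Signs changed only for differences that were not called with all libraries, in fits that left out 1 library unless another setting is named. For NM-Brdi against NM-DMSO, Wnt4 ranged from -0.779 to 0.122 and Wnt5b from -0.399 to 0.064. For control against NM-DMSO, Wnt5a ranged from -0.402 to 0.492 (0.018 with voom), Wnt5b from -0.319 to 0.137 and Wnt10b from -0.0303 to 0.04 (-0.00538 without a filter). For the interaction, Wnt4 ranged from -0.191 to 0.719, Wnt5a from -0.433 to 0.445 and Wnt5b from -0.0914 to 0.381. The ends of these ranges came from leaving out NM-DMSO replicate 1 or 2, and for Wnt10b from leaving out control replicate 1 or 2. For Brd against NM-Brdi, Wnt5a ranged from -0.013 to 0.133 and Wnt9a from -0.0227 to 0.265, and for Brd against control Wnt5b ranged from -0.0343 to 8.18e-05.

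The labels do not say that a replicate number marks a shared culture, and deviations of libraries with the same number correlated at -0.0012 to 0.14 between groups. With the replicate block the called members numbered 3, 2, 4, 2 and 0 in the order above, as without it, and only Wnt10b (-0.000436) and Wnt5a (0.00585) for control against NM-DMSO changed sign. Over the whole table the block gave 188 called genes for NM-Brdi against NM-DMSO.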
